A study of Mus musculus with 12 samples.

Results

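BMDMs, monocytes grown from the bone marrow of mice of strain C57BL/6, were given M-CSF, RANKL, dexamethasone (DEX) and iBRD9, and were compared with BMDMs given M-CSF and RANKL only (MR). The comparison was chosen by its labels and not by any measured value, and it holds 6 of the 12 RNA sequencing libraries of the series, 3 in each group. All cultures contained M-CSF at 50 ng/ml and RANKL at 100 ng/ml. DEX is a synthetic glucocorticoid, and iBRD9 is a small molecule that occupies the bromodomain of BRD9. The remaining libraries came from MR cultures with dBRD9, a degrader of the BRD9 protein, or with JQ1, which blocks the bromodomains of the BET proteins. The comparison addressed what a glucocorticoid combined with BRD9 inhibition changes during osteoclastogenesis. There was no group with DEX by itself or iBRD9 by itself, so the parts of the 2 compounds cannot be told apart. The labels give no dose or duration for DEX and iBRD9, name no vehicle for the MR cultures themselves, and do not say whether the 3 libraries of a group were separate cultures or mice, so p-values measure the spread between these libraries, which may be technical.

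M-CSF keeps monocytes and macrophages alive through the receptor CSF1R, and RANKL, through its receptor RANK, drives them to fuse into osteoclasts, the cells that resorb bone, by way of NF-kB, FOS and the master factor NFATC1. Glucocorticoids bind the glucocorticoid receptor, which enters the nucleus, binds DNA at response elements and restrains many inflammatory genes that NF-kB and AP-1 drive. BRD9 belongs to the non-canonical form of the BAF complex, which moves nucleosomes, and its bromodomain binds acetylated proteins on chromatin.

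The counts of the 6 libraries summed to between 15080959 and 18067758. The genes that define macrophages were abundant in all 6 libraries, whereas those of the mature osteoclast were low. The 8 monocyte and macrophage markers (Csf1r, Adgre1, Itgam, Cd68, Lyz2, Mpeg1, Fcgr1 and Cd14) summed to 22949 to 23305 CPM (read counts scaled to the size of the library) in MR and 20394 to 22196 CPM in DEX and iBRD9. The 8 osteoclast markers (Acp5, Ctsk, Mmp9, Dcstamp, Ocstamp, Atp6v0d2, Nfatc1 and Calcr) summed to 212 to 241 and 241 to 258 CPM, and the calcitonin receptor Calcr had no count in any of the 6. MR library 3 stood apart. It held 801 counts of albumin, 140 of Apoa1 and 55 of the muscle actin Acta1, against 0 to 2 counts of albumin and none of the others in the remaining 5 libraries, and the dBRD9 libraries held 738 to 866 counts of albumin. On a principal component analysis of the 6 libraries the first component (31.5% of the variance) set MR library 3, at 30.9, apart from the rest, at -11.6 to 1.92. Results are therefore also given from a fit of the 5 libraries without albumin. A call means an adjusted p under 0.05 in the edgeR quasi-likelihood test with Benjamini-Hochberg adjustment over all genes tested, from 1 fit of all 12 libraries, and log2 fold changes are DEX and iBRD9 minus MR with their standard errors.

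In the fit of all 12 libraries, DEX with iBRD9 changed few genes, and changed them little. Of 11670 genes tested, 69 rose (0.591%) and 159 fell (1.36%), or 1.95% in all. The median size of a called change was 0.35 on the log2 scale, no gene rose by 2-fold or more, and 4 fell by at least that much, namely the chemokine receptor gene Ccr2, the osteoclast protease gene Ctsk, the neutrophil peptide gene Camp and the hepatocyte gene Ambp. In the 5 libraries without albumin, and so without MR library 3, Ctsk was at -0.88, short of 2-fold, and Ambp at -1.18 was not called (edgeR adjusted p = 0.216). At an unadjusted p under 0.05, 1823 genes (15.6%) were reached, and the median over all genes was 0.00. The lowest library of one group lay above the highest of the other for 227 of the 228 called genes, and the same held for 25.1% of all genes tested. The number of calls depended on the libraries fitted. A fit of only the 6 libraries compared called 402 genes higher (3.54%) and 652 lower (5.75%). Leaving 1 of the 6 out of the fit of all 12 gave between 10 genes higher with 44 lower (without DEX and iBRD9 library 2) and 59 higher with 111 lower (without DEX and iBRD9 library 1). Of the 228 genes, 34 were called whichever library was left out. In the 5 libraries without albumin, 223 of the 228 were called and all 228 had the same sign. These libraries also served to pick the genes, and groups that do not overlap nearly fix the sign, so this is no independent check. With a term for liver transcripts in the model, 96 of the 228 were called.

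**Figure D1:**
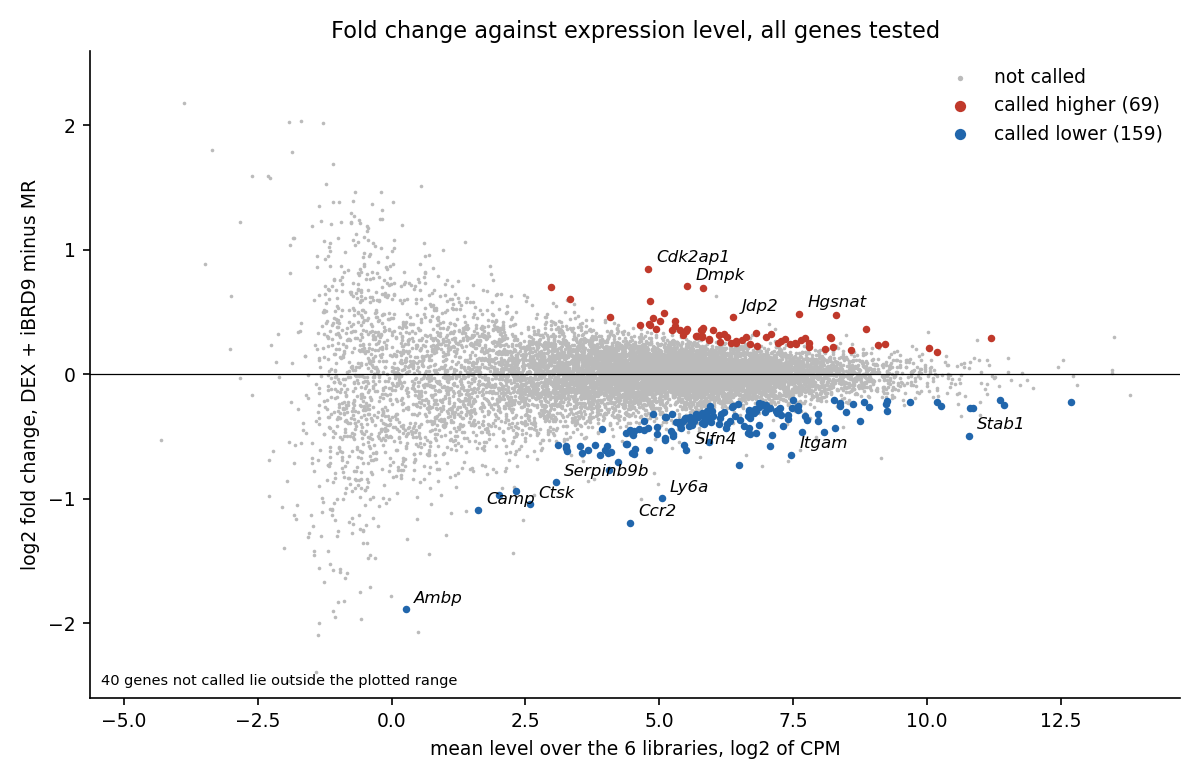
Each point is 1 of the 11670 genes tested, with the mean level over the 6 libraries (log2 of CPM) on the horizontal axis and the log2 fold change of DEX and iBRD9 against MR on the vertical axis. The 69 genes called higher reach 0.85 at Cdk2ap1, and the 159 called lower reach -1.19 at Ccr2 among genes above 5 CPM, while 40 genes that were not called lie outside the plotted range.

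The promoters of 4 genes are set out here because they belong to the largest fall among genes averaging 5 CPM or more, the osteoclast gene that fell, the largest rise and a glucocorticoid-induced gene that did not pass the test. They run from 250 bases before to 50 bases after the transcription start in the RefSeq annotation of GRCm38.p6, and 56 of the 80 named genes had such a window. Capitals mark the glucocorticoid response half-site AGAACA (either strand), the AP-1 site TGANTCA (either strand) and, where they occur, a pair of GAAA repeats 2 bases apart as in interferon response elements. A full glucocorticoid response element was read as AGAACA followed, 3 bases on, by its reverse complement, so it also contains half-sites on both strands.
Ccr2, chr9:124101933-124102232, plus strand: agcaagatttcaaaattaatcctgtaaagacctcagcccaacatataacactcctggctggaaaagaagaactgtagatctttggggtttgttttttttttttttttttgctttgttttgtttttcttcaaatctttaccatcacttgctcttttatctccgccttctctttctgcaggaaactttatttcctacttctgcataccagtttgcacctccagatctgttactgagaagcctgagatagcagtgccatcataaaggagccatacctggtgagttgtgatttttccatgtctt
Ctsk, chr3:95498960-95499259, plus strand: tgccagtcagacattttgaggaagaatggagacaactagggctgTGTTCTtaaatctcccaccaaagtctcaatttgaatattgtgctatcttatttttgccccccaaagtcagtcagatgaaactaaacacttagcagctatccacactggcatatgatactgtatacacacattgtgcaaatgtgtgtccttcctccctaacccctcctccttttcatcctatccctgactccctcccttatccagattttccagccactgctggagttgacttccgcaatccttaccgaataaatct
Cdk2ap1, chr5:124354579-124354878, minus strand: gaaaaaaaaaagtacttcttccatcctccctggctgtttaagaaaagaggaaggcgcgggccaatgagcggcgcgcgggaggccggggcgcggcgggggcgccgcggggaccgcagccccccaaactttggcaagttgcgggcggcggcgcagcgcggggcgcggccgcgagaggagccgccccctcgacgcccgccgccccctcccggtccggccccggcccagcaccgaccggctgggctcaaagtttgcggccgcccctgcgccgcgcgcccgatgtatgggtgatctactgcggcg
Sgk1, 1 of 6 starts, chr10:21993640-21993939, plus strand: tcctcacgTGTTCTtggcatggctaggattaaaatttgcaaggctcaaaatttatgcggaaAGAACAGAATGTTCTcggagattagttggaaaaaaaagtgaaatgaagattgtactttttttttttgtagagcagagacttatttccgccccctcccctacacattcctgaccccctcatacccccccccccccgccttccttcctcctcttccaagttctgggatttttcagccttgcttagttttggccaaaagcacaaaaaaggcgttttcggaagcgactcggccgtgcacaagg
The window of Ccr2 holds none of these motifs and 1 CpG, and that of Cdk2ap1 holds none of them and 43 CpG. Ctsk has 1 half-site, 206 bases before the start. The Sgk1 window holds the full element, beginning 189 bases before that start, 1 of 3 such windows among all 32851 promoters (0.00913%). The 75 windows of genes that rose came from 55 of these 69 genes. The 159 windows of genes that fell came from 125 of these 159 genes. A gene with several starts entered with a window for each. A half-site stood in 7 of the 75 windows of genes that rose (9.33%), in 21 of the 159 windows of genes that fell (13.2%) and in 19% of all promoters, and an AP-1 site in 1.33%, 6.29% and 7.81% of them. The pair of GAAA repeats stood in 5.33%, 5.66% and 3.44%. These sets differ in base composition. The windows of genes that rose and fell had a median of 61.7% and 60% G and C, against 52.7% for all promoters. Their median number of CpG was 24 and 18, against 7. All promoters also include genes that were not tested, and the part of base composition in these shares was not tested. These are matches of letters, not sites of binding, and enhancers farther away were not searched.

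Among genes whose mean reached 5 CPM, the largest fall was that of Ccr2, the receptor for the monocyte chemoattractant CCL2. Its level was 34.8, 29.6 and 27.1 CPM in MR libraries 1 to 3 and 12.2, 14.0 and 13.8 CPM in the DEX and iBRD9 libraries. The groups lay far apart, and the fold change was -1.19 ± 0.12 (edgeR adjusted p = 5.54e-07). The call held without any single library, with an adjusted p of at most 4.52e-05 by edgeR. On GRCm39 the gene lies on chromosome 9, 123901982 to 123913594, plus strand.

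Of 41 tested inflammatory cytokine, chemokine and NF-kB genes, 2 rose and 4 fell, against 0.591% and 1.36% of all genes tested. The median was -0.02. Besides Ccr2, Ccl6, a chemokine of myeloid cells, fell from 338, 362 and 366 CPM to 274, 252 and 266 CPM. The groups did not overlap, and the fold change was -0.43 ± 0.06 (edgeR adjusted p = 4.73e-05, at most 0.0027 without any 1 library). Cxcl3, a neutrophil chemoattractant, was at 6.93, 6.43 and 6.32 CPM in MR and 3.34, 3.34 and 3.57 CPM with DEX and iBRD9, a fold change of -0.94 ± 0.22 (edgeR adjusted p = 0.0182) that was lost whichever library was left out (up to 0.106). Tumor necrosis factor, Tnf, moved the other way, from 55.7, 55.3 and 53.0 to 65.2, 69.2 and 65.1 CPM (0.28 ± 0.07, edgeR adjusted p = 0.0254), and that call too was lost without any 1 of the 6 libraries (up to 0.172). The complement receptor gene C3ar1 changed by 0.21 ± 0.05 (edgeR adjusted p = 0.0384) and lost its call in 5 of those cases (up to 0.283). Ccl2, the ligand of CCR2, did not pass the test (-0.16 ± 0.12, edgeR adjusted p = 0.579), nor did any of the 16 NF-kB and inflammasome genes, whose median was 0.06. Il1b and Il6 were too low to be tested, and Il6 had no count in any of the 6 libraries.

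**Figure D2:**
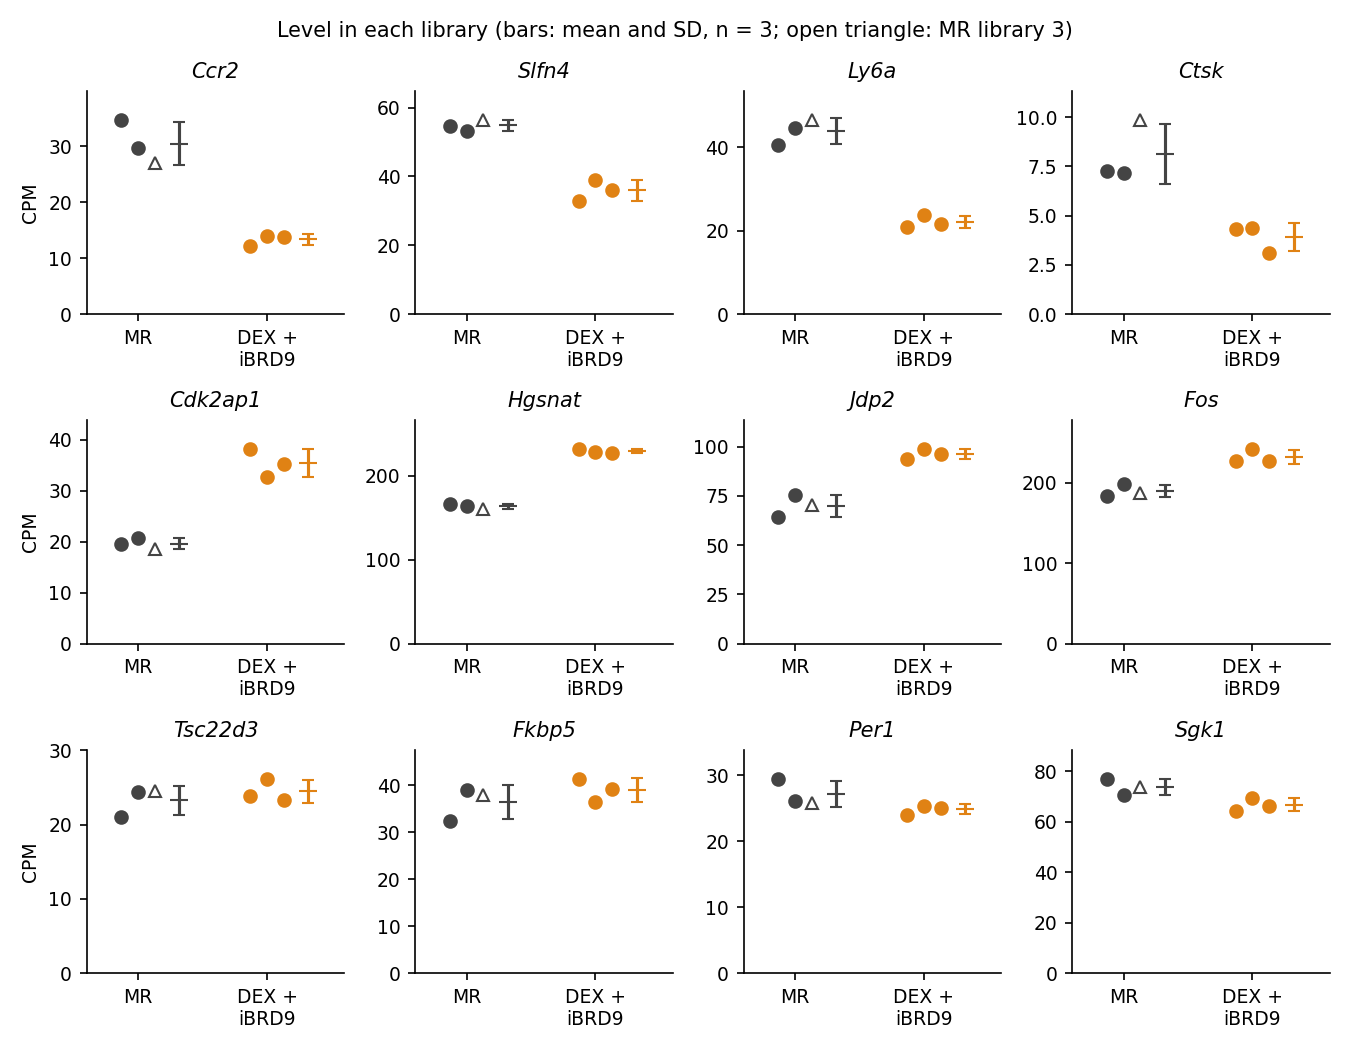
Levels in CPM of 12 genes in each library of MR (gray, library 3 as an open triangle) and of DEX and iBRD9 (orange), with the mean and SD of the 3 libraries. Ccr2, Slfn4, Ly6a and Ctsk are lower and Cdk2ap1, Hgsnat, Jdp2 and Fos higher in every treated library, whereas for Tsc22d3 and Fkbp5 the groups overlap.

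Among the rises, the largest was that of Cdk2ap1, which encodes a CDK2-associated protein that is also a subunit of the NuRD chromatin complex. On GRCm39 it lies on chromosome 5, 124483480 to 124501145, minus strand. Its level was 19.6, 20.7 and 18.5 CPM in MR and 38.1, 32.7 and 35.3 CPM in DEX and iBRD9. The ranges were well apart (0.85 ± 0.10, edgeR adjusted p = 5.02e-06). Hgsnat, the lysosomal acetyltransferase of heparan sulfate breakdown, had 166, 164 and 160.2 CPM in MR and 231, 229 and 227 CPM under treatment (0.49 ± 0.05, edgeR adjusted p = 2.54e-06). Dmpk, which encodes the myotonic dystrophy protein kinase, rose from 29.9, 38.1 and 36.0 to 59.5, 57.2 and 53.3 CPM (0.71 ± 0.08, edgeR adjusted p = 7.16e-06). These 3 calls, those of Cep85, a centrosome gene (0.48 ± 0.08), and of Ppp2cb, a catalytic subunit of protein phosphatase 2A (0.70 ± 0.10), held whichever library was left out. Ppp2cb overlaps Ubxn8 on the opposite strand, and since no source states whether the counting used strand, its counts may hold reads of that neighbour. Gpr84, a receptor for medium-chain fatty acids on myeloid cells, was at 29.0, 28.4 and 27.9 CPM in MR and 40.0, 39.5 and 40.5 CPM with DEX and iBRD9. Despite the narrow spread, its call (0.49 ± 0.12, edgeR adjusted p = 0.0193) was lost without any 1 library (up to 0.0994). Plp2rt (0.59 ± 0.12) lost its call only without DEX and iBRD9 library 2 (edgeR adjusted p = 0.0821), and Taf4b, a gene of a TFIID subunit (0.70 ± 0.18), lost it in 5 of the 6 cases (up to 0.183).

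The other large falls were of genes with varied roles. Ly6a, which encodes the surface antigen Sca-1, was at 40.5, 44.6 and 46.6 CPM in MR and 20.9, 23.6 and 21.6 CPM in DEX and iBRD9. All 3 treated libraries lay far below the lowest MR library (-0.99 ± 0.15, edgeR adjusted p = 0.00109, at most 0.0159 without any 1 library). Stra6l, a relative of the retinol receptor gene, fell by 0.70 ± 0.13 on the log2 scale (edgeR adjusted p = 0.00268) and was also called in every such fit. Serpinb9b, a serine protease inhibitor gene, had 10.1, 12.3 and 10.2 CPM in MR and 5.15, 6.74 and 5.99 CPM under treatment (-0.87 ± 0.17, edgeR adjusted p = 0.00549), and lost its call only without MR library 2 (0.0563). The zinc transporter gene Slc39a4 changed by -0.65 ± 0.15 (edgeR adjusted p = 0.0169) and lost its call in 5 of the 6 cases (up to 0.147).

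Several genes that glucocorticoids induce in many cell types did not pass the test. The labels give no dose, and the authors describe the concentrations of DEX and iBRD9 in their sequenced combination as low. Tsc22d3, which encodes the glucocorticoid-induced leucine zipper, was at 21.0, 24.3 and 24.5 CPM in MR and 23.9, 26.2 and 23.4 CPM with DEX and iBRD9. Fkbp5, a co-chaperone of the receptor, was at 32.4, 39.1 and 38.0 and at 41.4, 36.4 and 39.2 CPM. The groups overlapped in both genes, with fold changes of 0.07 ± 0.10 (edgeR adjusted p = 0.798) and 0.10 ± 0.09 (edgeR adjusted p = 0.639). The clock gene Per1 (-0.13 ± 0.11, edgeR adjusted p = 0.626), the transcription factor gene Klf9 (-0.27 ± 0.16, 0.446), the kinase gene Sgk1 (-0.15 ± 0.07, 0.308), the scavenger receptor gene Cd163 (-0.18 ± 0.21, 0.754) and Zbtb16 (0.13 ± 0.53, 0.94), which had under 1.3 CPM in every library, did not pass the test either. Mt1, a metallothionein, was higher in each treated library (68.4, 76.3 and 73.9 CPM) than in MR (61.0, 60.7 and 61.1 CPM). It did not pass in the fit of all libraries (0.26 ± 0.09, edgeR adjusted p = 0.125) and did in the 5 libraries without albumin (0.0262). Mt2 had no count in any of the 6 libraries.

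Of 52 listed glucocorticoid receptor targets and cofactors, 47 were tested, with a median of -0.07. Of these 2 rose and 5 fell, against 0.591% and 1.36% of all genes tested. Without MR library 3, in the 5 libraries without albumin, the median was -0.04, and with a library left out of the full fit it lay between -0.09 and -0.02. The risers were Dusp1, the phosphatase that switches off MAP kinases, and Foxo1, a transcription factor of metabolism. Of the 2, Dusp1 overlaps Ergic1 on the opposite strand. Dusp1 went from 58.3, 53.8 and 53.1 to 63.9, 70.9 and 64.8 CPM (0.27 ± 0.07, edgeR adjusted p = 0.0427) and Foxo1 from 7.87, 8.69 and 7.42 to 14.8, 11.4 and 10.4 CPM (0.61 ± 0.16, edgeR adjusted p = 0.0382). No library of one group reached into the other, yet both calls were lost without any 1 library (up to 0.265 and 0.217). Among the 5 that fell, glucocorticoids are known to raise several in macrophages or other tissues. Mrc1, the mannose receptor gene, was at 494, 484 and 488 CPM in MR and 374, 368 and 387 CPM in DEX and iBRD9 (-0.38 ± 0.06, edgeR adjusted p = 0.000173). Stab1, a scavenger receptor gene that overlaps Nt5dc2 on the other strand, was at 2148, 1920.3 and 2105 CPM and then 1573, 1403 and 1409.5 CPM (-0.49 ± 0.06, 1.96e-05). Glul, the glutamine synthetase gene, changed by -0.32 ± 0.05 (edgeR adjusted p = 0.00111), and all 3 were called whichever library was left out. Txnip, an inhibitor of thioredoxin, changed by -0.27 ± 0.06 (edgeR adjusted p = 0.0182) and lost its call in 4 of these 6 cases (up to 0.125), and the last of the 5 was Ccr2. The receptor gene itself, Nr3c1, was at 111, 116 and 115 CPM in MR and 97.9, 99.0 and 103 CPM under treatment, a difference of -0.19 ± 0.07 that did not pass (edgeR adjusted p = 0.195).

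**Figure D3:**
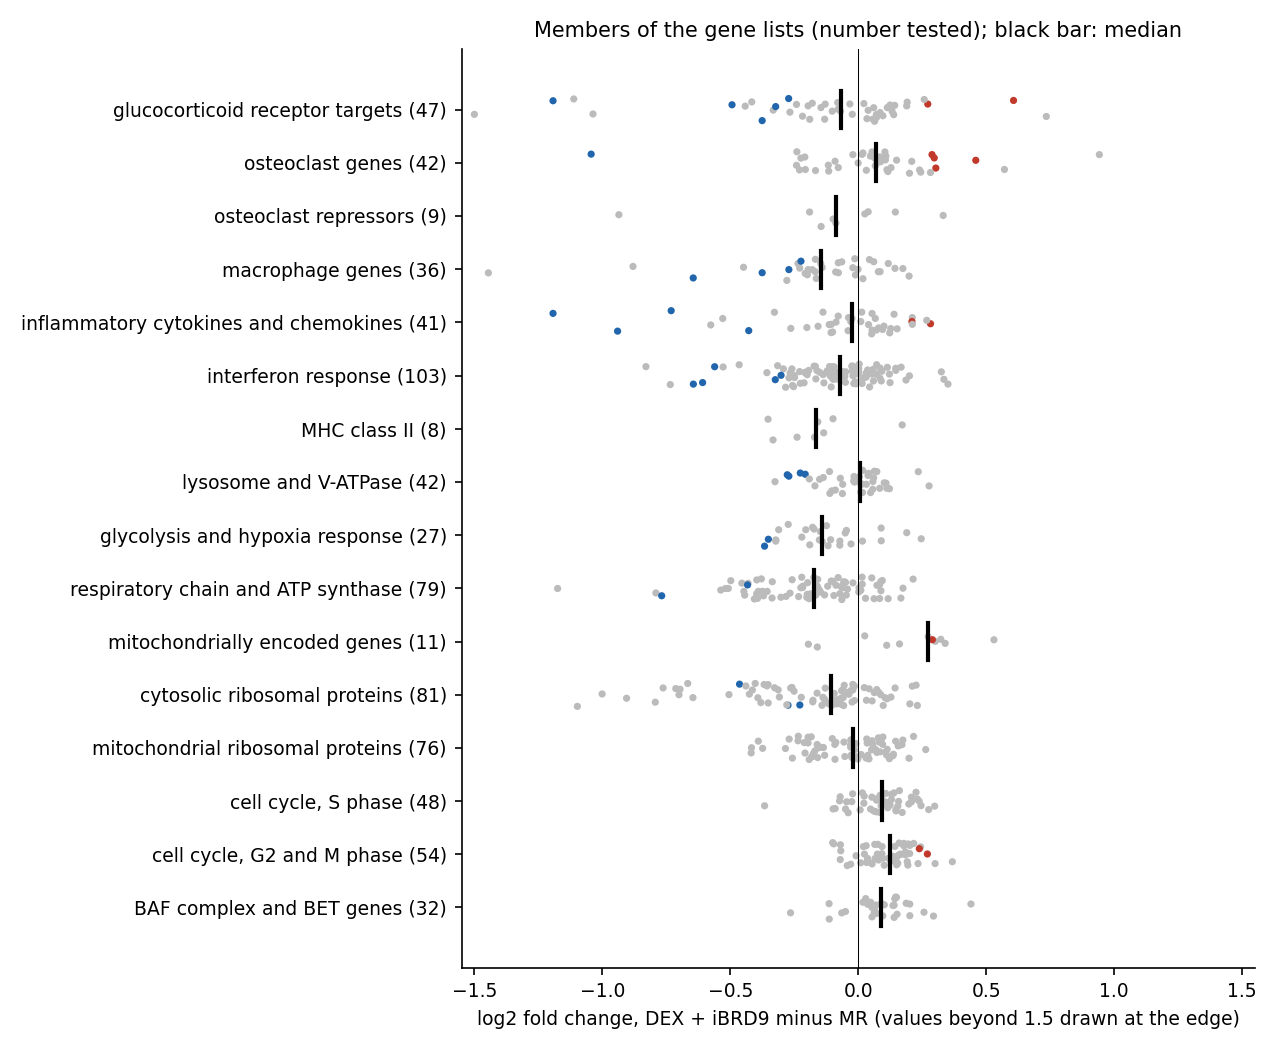
Each point is the log2 fold change (DEX and iBRD9 minus MR) of 1 tested member of a gene list, red where called higher and blue where called lower, and the black bar is the list's median. The median is -0.07 for the 47 glucocorticoid receptor targets, 0.07 for the 42 osteoclast genes, -0.17 for the 79 respiratory chain genes and 0.27 for the 11 mitochondrially encoded ones, and 1 value beyond 1.5 is drawn at the edge.

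The osteoclast program shifted little, and its called genes pointed both ways. Of 42 osteoclast genes tested, 4 rose and 1 fell, against 0.591% and 1.36% of all genes tested, with a median of 0.07. Jdp2, an AP-1 repressor that osteoclast formation needs in mice, was at 64.1, 75.5 and 70.2 CPM in MR and 93.9, 98.7 and 96.1 CPM in DEX and iBRD9 (0.46 ± 0.07, edgeR adjusted p = 0.000479). Akt1, a survival kinase downstream of M-CSF and RANKL, was at 253, 263 and 274 and then 329.6, 308 and 333 CPM (0.30 ± 0.05, edgeR adjusted p = 0.00175). Both were separated from MR in every library and were called whichever library was left out, although Akt1 overlaps Siva1 and Zbtb42 on the opposite strand. Fos, the AP-1 subunit without which no osteoclasts form in mice, was at 184, 199 and 187 CPM in MR and 227, 242 and 227 CPM under treatment (0.29 ± 0.06, edgeR adjusted p = 0.00819). Mmp9, the gelatinase B gene, had 111, 123 and 110.4 CPM and then 147, 146 and 132 CPM (0.30 ± 0.07, edgeR adjusted p = 0.0185). These last calls were lost in 3 and 4 of the 6 cases with a library left out, at adjusted p of up to 0.0884 and 0.132 without DEX and iBRD9 library 2.

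Ctsk, the collagen-degrading protease of the osteoclast, went the other way. On GRCm39 the gene lies on chromosome 3, 95406178 to 95416732, plus strand. It was at 7.28, 7.18 and 9.87 CPM in MR and 4.30, 4.36 and 3.11 CPM with DEX and iBRD9, so that the lowest MR library was above the highest treated one. The fold change was -1.04 ± 0.22 (edgeR adjusted p = 0.0109, and 0.00954 in the 5 libraries without albumin), and the call was lost without MR library 3 (0.0945) or without DEX and iBRD9 library 3 (0.1). Acp5, the gene of tartrate-resistant acid phosphatase, had 137, 157 and 125 raw counts in MR and 131, 185 and 146 under treatment, and the groups overlapped, with means of 8.18 and 8.95 CPM (0.13 ± 0.16, edgeR adjusted p = 0.771). The master factor gene Nfatc1 (0.11 ± 0.08, edgeR adjusted p = 0.511), the fusion gene Dcstamp (0.24 ± 0.23, 0.665), the proton pump gene Atp6v0d2 (-0.24 ± 0.12, 0.336) and Spi1, which encodes PU.1 (0.11 ± 0.06, 0.371), did not pass. Ocstamp, a second fusion gene, had 0.705, 0.751 and 0.451 CPM in MR and 1.19, 1.73 and 0.806 CPM with DEX and iBRD9. The ranges did not meet, but at this depth the difference of 0.94 ± 0.49 did not pass (edgeR adjusted p = 0.358). Myc (0.24 ± 0.07, edgeR adjusted p = 0.087) and the cytokine signaling inhibitor gene Socs3 (0.57 ± 0.18, 0.0963) did not pass in the fit of all libraries. Both passed in the 5 libraries without albumin (edgeR adjusted p = 0.0471 and 0.043) and in a fit of the 6 libraries compared (0.0061 and 0.0162). Of the 14 transcription factors on the list 11 lay above 0, against 50.4% of all genes tested, and none of 9 tested osteoclast repressors, among them Irf8, Bcl6 and Foxp1, was called.

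Of 36 tested genes of macrophage surface and identity, none rose and 4 fell, against 0.591% and 1.36% of all genes tested. The median was -0.14, with 27 members below 0, against 49.6% of all genes tested. Itgam, the CD11b integrin chain, was at 214, 244 and 188 CPM in MR and 129, 147 and 138 CPM in DEX and iBRD9 (-0.64 ± 0.12, edgeR adjusted p = 0.0215). All 3 treated libraries were lower, and the call was lost in 4 of the 6 cases with a library left out, up to 0.0962. Mrc1 fell as given above, and Spp1, the osteopontin gene, and Apoe, the lipid carrier gene, changed by -0.27 ± 0.06 and -0.22 ± 0.06 (edgeR adjusted p = 0.0134 and 0.0374), with calls lost in 4 and 5 of those cases (up to 0.105 and 0.2). The defining gene Adgre1 had a mean of 1137 CPM in both groups (edgeR adjusted p = 0.998), and Csf1r, the M-CSF receptor gene, did not pass either (-0.08 ± 0.05, 0.494). Whether fewer cells of a kind or less RNA per cell lay behind such a difference cannot be told apart in bulk RNA. Of the lysosome and V-ATPase genes 0 of 42 rose and 4 fell, against 0.591% and 1.36% of all genes tested, with a list median of 0.01. The 4 were Psap (-0.23 ± 0.05), Ctss (-0.27 ± 0.06), Ctsl (-0.21 ± 0.05) and Atp6v1g1 (-0.28 ± 0.07), with edgeR adjusted p from 0.00728 to 0.0434. Each of these 4 calls was lost in at least 3 of the 6 cases with a library left out (up to 0.258 for Ctsl).

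Of 103 tested interferon genes, none rose and 5 fell, against 0.591% and 1.36% of all genes tested. The median was -0.07 (-0.12 to -0.03 with a library left out), and 70 lay below 0, against 49.6% of all genes tested. In the 5 libraries without albumin 12 fell and 2 rose, against 3.44% and 1.84% of all genes. In a fit of the 6 libraries compared 16 fell and 5 rose, against 5.75% and 3.54% of all genes. Slfn4, a Schlafen gene that type I interferon induces in macrophages, was at 54.7, 53.2 and 56.5 CPM in MR and 32.9, 38.9 and 36.0 CPM under treatment (-0.61 ± 0.09, edgeR adjusted p = 0.000198, at most 0.00638 without any 1 library). Tgtp2, an interferon-induced GTPase gene, went from 25.3, 34.0 and 24.9 to 19.1, 18.8 and 16.1 CPM (-0.64 ± 0.12, 0.00453), and its call was lost without MR library 2 (0.0726) or DEX and iBRD9 library 3 (0.0534). Both have close relatives in the mouse genome between which reads can be split. The others were Trim25, which activates the RNA sensor RIG-I (-0.30 ± 0.06, edgeR adjusted p = 0.00521), the RNA sensor gene Tlr7 (-0.32 ± 0.08, 0.0195) and the immunoproteasome gene Psmb8 (-0.56 ± 0.14, 0.0248). With a library left out these calls were lost in 1, 5 and 4 of the 6 cases, respectively (up to 0.0534, 0.124 and 0.166). The signal transducer gene Stat2 (-0.06 ± 0.06, edgeR adjusted p = 0.701), the regulator Irf7 (-0.07 ± 0.10, 0.812) and the ubiquitin-like Isg15 (-0.17 ± 0.09, 0.368) did not pass.

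Genes of mitochondrial respiration that reside in the nucleus leaned lower, and those of the mitochondrial genome leaned higher. Of 79 tested respiratory chain and ATP synthase genes, 61 lay below 0, against 49.6% of all genes tested, and the median was -0.17. Only the ATP synthase subunit genes Atp5mk (-0.77 ± 0.16, edgeR adjusted p = 0.0109) and Atp5f1e (-0.43 ± 0.11, 0.0401) were called. Atp5f1e was at 30.7, 32.8 and 31.8 CPM in MR and 27.0, 21.0 and 22.6 CPM in DEX and iBRD9. The groups did not overlap, and the call was lost in 5 of the 6 cases with a library left out (up to 0.258), as that of Atp5mk, which overlaps Pdcd11 and Taf5 on the opposite strand, was in 3. In a fit of the 6 libraries compared, 25 of these genes fell and none rose, against 5.75% and 3.54% of all genes. In the 5 libraries without albumin 14 fell and none rose, against 3.44% and 1.84%. By complex, the median was -0.16 for 37 genes of complex I, 0.02 for 4 of complex II, -0.20 for 9 of complex III, -0.18 for 12 of complex IV and -0.19 for 17 of ATP synthase. Many of these genes are short, and the shortest 2335 of all genes tested had a median of -0.04. With offsets for transcript length the median of the list was -0.13.

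Of 13 mitochondrially encoded genes 11 were tested, 9 lay above 0, against 50.4% of all genes tested, and the median was 0.27. mt-Cytb, the cytochrome b gene of complex III, was at 2044, 2192 and 2070.4 CPM in MR and 2349, 2702 and 2659 CPM with DEX and iBRD9. It was the only one called (0.29 ± 0.06, edgeR adjusted p = 0.0155), where 0.591% of all genes tested rose. The call was lost in 4 of the 6 cases with a library left out (edgeR adjusted p up to 0.126). In the 5 libraries without albumin 3 of the mitochondrially encoded genes rose and none fell, against 1.84% and 3.44% of all genes. A fit of the 6 libraries compared gave the same counts, against 3.54% and 5.75%. The share of counts from these genes was 1.90% ± 0.0542 (SD, n = 3) in MR and 2.30% ± 0.214 (SD, n = 3) in DEX and iBRD9, with the 3 treated libraries at 2.05%, 2.41% and 2.43%. RNA quality was not given for these libraries.

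**Figure D4:**
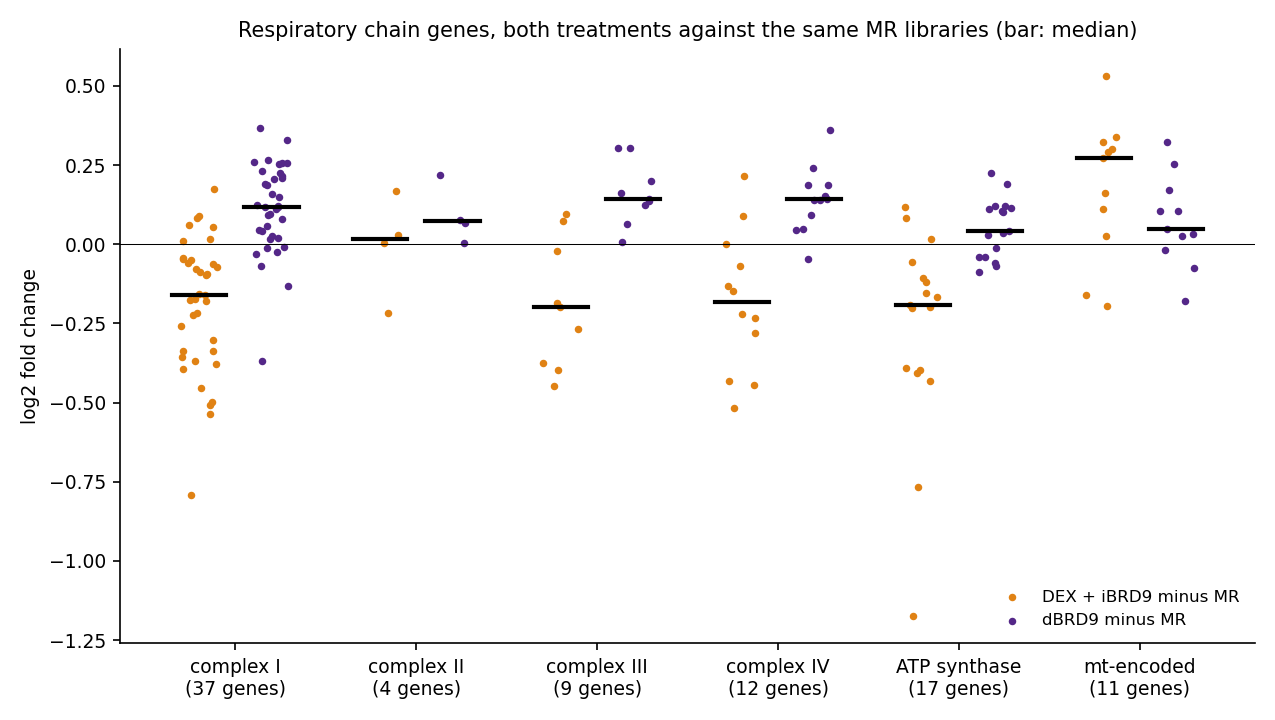
Log2 fold changes of the nuclear genes of each respiratory complex, of ATP synthase and of the mitochondrially encoded genes, for DEX and iBRD9 (orange) and dBRD9 (purple) against the same MR libraries, with the median as a bar. The medians of complexes I, III and IV and of ATP synthase are -0.20 to -0.16 with DEX and iBRD9 and 0.04 to 0.14 with dBRD9.

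Ribosomal protein genes leaned the same way as the nuclear respiratory genes. Of 81 tested cytosolic ribosomal protein genes none rose and 3 fell, against 0.591% and 1.36% of all genes tested. Their median was -0.10, and 64 lay below 0, against 49.6% of all genes tested. In the 5 libraries without albumin 13 fell and 5 rose, against 3.44% and 1.84% of all genes. In a fit of the 6 libraries compared, 19 fell and 5 rose, against 5.75% and 3.54%. Rplp1, a protein of the ribosomal stalk, was at 236, 226 and 241 CPM in MR and 189, 165 and 156 CPM under treatment (-0.46 ± 0.11, edgeR adjusted p = 0.0401). Rplp2 (-0.27 ± 0.07, 0.0492) and Rps3 (-0.23 ± 0.06, 0.0447) were the others, and all 3 calls were lost in 5 or 6 of the 6 cases with a library left out (up to 0.265). Rps3 overlaps Gdpd5 on the opposite strand. These genes have many processed copies in the genome to which their reads can be assigned, and Rpl24 had 0 to 4 counts in each library. The 76 mitochondrial ribosomal protein genes (median -0.02), 34 translation factors (0.00) and 31 proteasome subunits (0.02) held no called gene.

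Of 27 tested genes of glycolysis and the hypoxia response, 2 fell and none rose, against 1.36% and 0.591% of all genes tested. The median was -0.14, and 22 lay below 0, against 49.6% of all genes tested. Slc2a1, which encodes the glucose transporter GLUT1, was at 102, 102 and 103 CPM in MR and 76.4, 73.0 and 88.8 CPM in DEX and iBRD9 (-0.37 ± 0.08, edgeR adjusted p = 0.00836). Slc16a3, the lactate exporter gene, which overlaps Ccdc57 and Csnk1d on the other strand, was at 119.8, 108 and 119 and then 97.8, 90.2 and 84.0 CPM (-0.35 ± 0.07, edgeR adjusted p = 0.00805). The groups were apart in both, and the calls were lost in 1 and 4 of the 6 cases with a library left out (up to 0.105 and 0.0962). In cholesterol and fatty acid synthesis Hmgcs1, an early enzyme of the cholesterol pathway, alone of 30 genes fell (-0.31 ± 0.08, edgeR adjusted p = 0.0254), and in the amino acid stress response the factor gene Atf3 alone of 23 (-0.29 ± 0.07, 0.0165), calls that were lost in 5 and 4 of those cases (up to 0.16 and 0.118). Hmgcs1 overlaps Nim1k on the opposite strand. No gene of the citrate cycle and fatty acid oxidation was called among 31.

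Cell cycle genes leaned higher by a small amount. Of 54 genes of G2 and mitosis 46 lay above 0, against 50.4% of all genes, and the median was 0.12. Among them 2 rose and none fell, against 0.591% and 1.36% of all genes. Mki67, the proliferation antigen Ki-67, was at 468, 509.5 and 525 CPM in MR and 573, 595 and 605 CPM with DEX and iBRD9 (0.24 ± 0.06, edgeR adjusted p = 0.0306), and Ube2c, the ubiquitin-conjugating enzyme of the anaphase-promoting complex, at 70.4, 81.8 and 81.8 and then 92.5, 96.5 and 93.3 CPM (0.27 ± 0.07, 0.0455). No treated library fell within the MR range, and these calls were lost in 5 and 6 of the 6 cases with a library left out (up to 0.181 and 0.251). Of 48 S phase genes 38 lay above 0, none was called, and the median was 0.09. Of 53 Myc targets and ribosome biogenesis genes only the transferrin receptor gene Tfrc was called (-0.29 ± 0.07, edgeR adjusted p = 0.0201, up to 0.183 with a library left out). None of the 32 tested BAF complex and BET genes was called, and their median was 0.09. Brd9 itself, the gene of the inhibited protein, was at 40.7, 46.1 and 40.4 CPM in MR and 43.2, 43.1 and 43.6 CPM under treatment (0.03 ± 0.08, edgeR adjusted p = 0.902). An inhibitor of the bromodomain need not change this transcript, so its level does not check the labels. The other lists held few calls. Of 16 clock genes only Bhlhe41, a transcriptional repressor gene, was called (-0.61 ± 0.13, edgeR adjusted p = 0.0133, up to 0.115 with a library left out), and the median was -0.11. Of 25 immediate early genes Fos and Dusp1 rose and Atf3 fell, with a median of 0.01, and none of 8 MHC class II genes was called, with a median of -0.16.

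Markers of other cell types were measured beside these groups. The 16 neutrophil markers summed to 263 to 287 CPM in MR and 209 to 251 CPM in DEX and iBRD9. All 13 tested lay below 0, against 49.6% of all genes tested, with a median of -0.20. In the 5 libraries without albumin the median was -0.15, and only Elane (0.04) and Lcn2 (0.01) lay above 0. Camp, a granule peptide gene, was the only one called (3.82, 4.29 and 4.39 against 2.26, 2.21 and 1.38 CPM, -1.09 ± 0.29, edgeR adjusted p = 0.0421, up to 0.212 with a library left out). Ly6g, which defines neutrophils, had 0 to 4 counts. Endothelial and megakaryocyte markers summed to 323 to 339 and 316 to 340.3 CPM, and of these Kdr, a VEGF receptor gene, fell (-0.63 ± 0.13, edgeR adjusted p = 0.00824), a call lost without MR library 1 (0.0598) or DEX and iBRD9 library 3 (0.0937). Stromal markers summed to 57.0 to 67.9 and 48.8 to 70.5 CPM, dendritic cell markers to 32.4 to 36.7 and 36.7 to 43.0 CPM and skeletal muscle markers to 3.48 to 10.5 and 2.86 to 4.02 CPM, with none called. Hepatocyte markers summed to 46.8 to 156 CPM in MR, with the highest in library 3, and 44.2 to 52.6 CPM under treatment. Ambp, the only one called, was at 1.12, 1.18 and 3.42 CPM in MR and 0.283, 0.418 and 0.806 CPM in DEX and iBRD9, and without MR library 3 the call was lost (edgeR adjusted p = 0.322), as it was without any 1 of the treated libraries (up to 0.189). Markers of B cells, T and NK cells, mast cells and erythroid cells summed to at most 3.11 CPM in any of the 6 libraries, with Cd3e and Hbb-bs at 0. The part of these cells in the results above was not tested.

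The genes that changed most under DEX and iBRD9 were set beside dBRD9, which was compared with the same 3 MR libraries and for which 0.514% of all genes rose and 1.12% fell. Of 19 of the largest changes, 10 rises and 9 falls, 7 differed between DEX with iBRD9 and dBRD9 in a direct test of their libraries in the same fit. Across all genes, that test called 74 higher (0.634%) and 201 lower (1.72%) in DEX and iBRD9. The 19 genes were picked for their size in the DEX and iBRD9 libraries, which the direct test uses again, so the picking itself favors a difference. In 17 of the 19 the change was smaller with dBRD9. All 19 had the same sign with dBRD9, and 6 of them were called there, although both changes rest on the same MR libraries. Hgsnat had a fold change of 0.49 with DEX and iBRD9 and 0.02 ± 0.05 with dBRD9, and differed by 0.47 ± 0.05 (edgeR adjusted p = 1.78e-05). Ccr2 was at -1.19 and -0.56 ± 0.11 and differed by -0.63 ± 0.12 (edgeR adjusted p = 0.0055). The other 5 were Dmpk, Plp2rt, Ly6a, Serpinb9b and Atp5mk. Cdk2ap1 did not pass this test, at 0.85 and 0.94 ± 0.10 (difference -0.09 ± 0.09, edgeR adjusted p = 0.674), nor did Jdp2, at 0.46 and 0.58 ± 0.07 (-0.12 ± 0.07, 0.402), Akt1, at 0.30 and 0.39 ± 0.05 (-0.09 ± 0.05, 0.349), or Slfn4, at -0.61 and -0.54 ± 0.09 (-0.07 ± 0.09, 0.755). The interferon list had a median of -0.07 with DEX and iBRD9 and -0.19 with dBRD9, and 7 of its genes were higher and 1 lower in DEX and iBRD9 than in dBRD9. The respiratory chain list had medians of -0.17 and 0.12, with 12 genes lower and none higher in the direct test, and the cytosolic ribosomal proteins medians of -0.10 and 0.14, with 15 lower and none higher. All dBRD9 libraries held liver transcripts and no DEX and iBRD9 library did, so this division cannot be told apart from the treatment in the direct test. MR libraries 1 and 2 held 0 and 2 counts of albumin, so the values of dBRD9 against MR share this division in part.

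**Figure D5:**
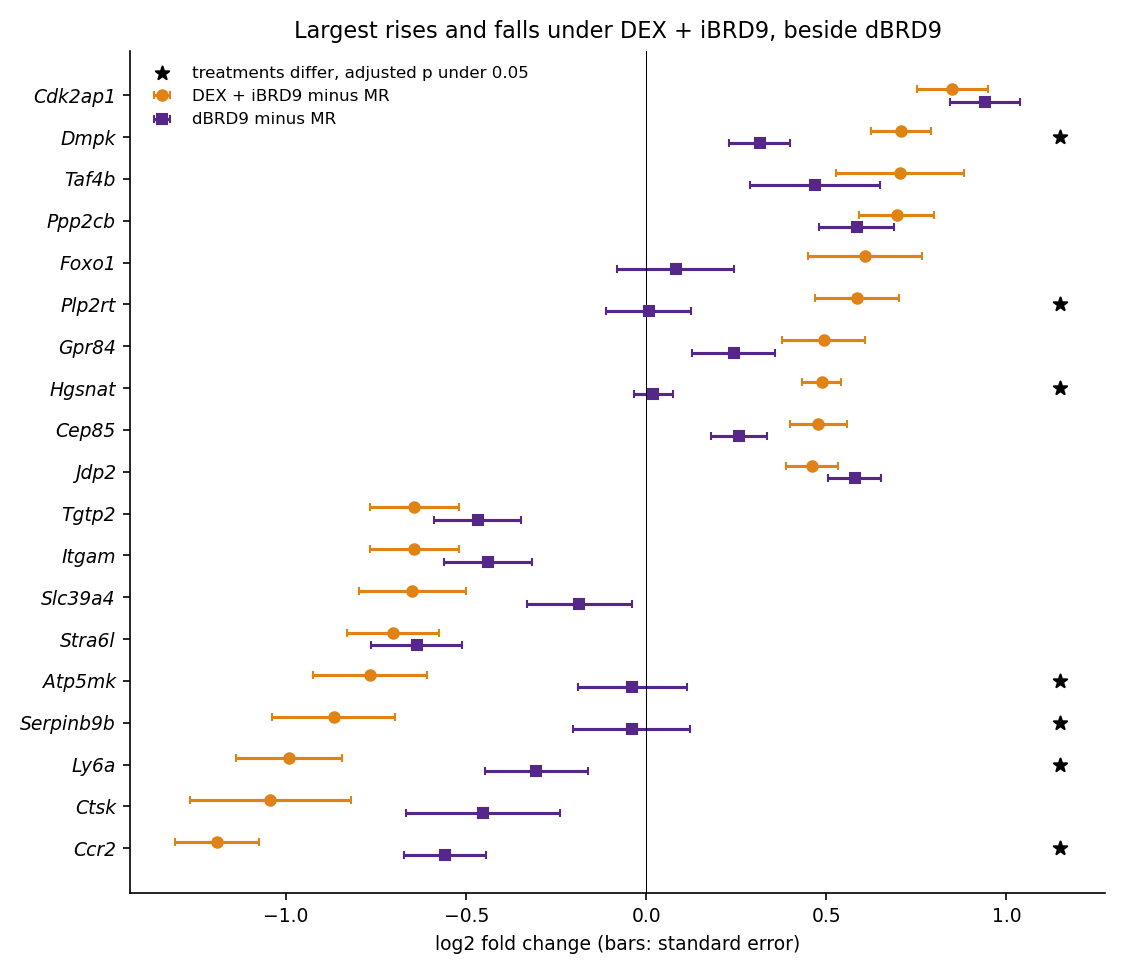
Log2 fold changes with standard errors of 10 large rises and 9 large falls under DEX and iBRD9 (orange circles), with the same genes under dBRD9 (purple squares), both against the same MR libraries. A star marks the 7 genes at which the treatments differed with an adjusted p under 0.05, among them Hgsnat and Ccr2.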

How the data were processed

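RNA of BMDMs was sequenced from 12 libraries in 4 groups of 3. Per the labels, the authors trimmed reads with cutadapt, aligned them with HISAT2 to GRCm39 and counted them per gene with HTSeq. The strand setting is not given in the sources used here. The deposited table holds raw counts of 21899 genes and FPKM values, which the authors derived from the counts. The counts were tested here, and the FPKM served only to recover the transcript length of each gene. Gene positions and overlaps came from GENCODE on GRCm39 (21700 genes matched, and the remaining 199 held at most 0.0159% of a library's counts), and promoters from RefSeq on GRCm38.p6.

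Low genes were removed with filterByExpr at its minimum count of 10 and total of 15, libraries were scaled by TMM, and 1 model of all 12 libraries (8 residual degrees of freedom) fitted with the robust quasi-likelihood test of edgeR 4.0.16 in R 4.3.3 (limma 3.58.1), with Benjamini-Hochberg adjustment over 11670 genes and an adjusted p under 0.05 as the threshold. The biological coefficient of variation was 7.29%. CPM are TMM-scaled counts, given per library or as mean and SD. The procedure was tested on simulated counts. DESeq2 1.42.0 was an alternative. Figures used Python 3.11.15, pandas 2.3.3 and matplotlib 3.10.9.

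Total counts ran from 14875951 to 18067758 over the 12 libraries. Libraries of 1 group differed by more than counting noise (chi-square per degree of freedom 3.55 to 5.40), so none was a second copy of another, and each was entered as 1 sample. The named genes were the 10 largest called changes in each direction among genes averaging 5 CPM or more whose libraries did not overlap (predicted genes left out), a set of glucocorticoid, osteoclast and interferon genes, up to 4 called members per direction of each of 34 gene lists, and cell type markers. The members and lists were chosen with earlier results of these data known. Alternatives were other scalings, filters, tests, sets of libraries, a term for liver transcripts, length offsets and leaving out each library. The JQ1 libraries entered the model and no comparison here. A few genes that the rule named are not reported here.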

Additional observations from a re-analysis of the deposited data

How the results depend on the processing

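Against MR, 69 higher and 159 lower genes became 402 and 652 in a fit of the 6 libraries compared, 251 and 413 in 9 libraries without JQ1, and 212 and 396 in the 5 libraries without albumin, a set chosen after seeing the data. They became 154 and 419 with no filter, 145 and 279 with length offsets, 278 and 521 with an unadjusted p and a fold of 1.2, and 20 and 81 with the liver division as a term. DESeq2 called 126 and 238. Leaving out 1 library gave 10 to 59 higher and 43 to 111 lower. All 228 genes were called in the 6 libraries, 223 in the 5 and 96 with the liver term, with 228 of the same sign in the last 2. Against dBRD9, 74 higher and 201 lower became 180 and 301 by DESeq2 and 425 and 535 in 9 libraries, and 2 to 90 and 6 to 262 with a library left out. The rank correlation of fold change with transcript length, across genes, was 0.05 and became -0.0017 with length offsets. Of the 80 named genes 56 were called. Of these, 30 lost their call with the liver term, and 16 to 34 with a library left out, most without DEX and iBRD9 library 2. List medians near 0 (translation factors, citrate cycle, inflammatory, lysosome, immediate early and endothelial lists) changed sign under at least 1 alternative, by at most 0.04 on the far side of 0. The cause of these shifts was not tested. No paired analysis was possible because the labels give the groups no shared replicate numbers, and numbers in accession order pair nothing.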

Other observations

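The genes described here were picked from the 228 called ones after their values were seen, so they stand as single genes and not as groups. Cd5l, a secreted protein of tissue macrophages that acts on lipid metabolism and cell survival, was at 156, 155 and 172 CPM in MR and 109, 108 and 106 CPM with DEX and iBRD9. The groups lay far apart (-0.58 ± 0.07, edgeR adjusted p = 1.04e-05), the call held without any 1 library (at most 0.000522), and the level differed from that with dBRD9 (adjusted p = 0.000257). Scp2, a carrier of sterols and other lipids, was at 123, 121 and 111 CPM and then 86.9, 85.0 and 82.9 CPM (-0.47 ± 0.07, edgeR adjusted p = 0.000173, at most 0.00428 without any 1 library). Fabp4, a fatty acid binding protein of adipocytes and macrophages, fell by 0.63 ± 0.12 on the log2 scale (edgeR adjusted p = 0.00521), and its call was lost in 1 of the 6 cases (0.0557).

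Mmp13, a collagenase gene, was at 53.0, 55.0 and 50.8 CPM in MR and 38.4, 35.4 and 33.0 CPM with DEX and iBRD9, whereas Mmp9 rose. Its change of -0.57 ± 0.09 (edgeR adjusted p = 0.000324) was called whichever library was left out. The same held for Ets2, a transcription factor downstream of M-CSF signaling (-0.46 ± 0.06, edgeR adjusted p = 6.09e-05), and for Selenot, a selenoprotein of the endoplasmic reticulum (-0.37 ± 0.06, 0.000804). Also picked after their values were seen, Dnmt1, the maintenance DNA methyltransferase gene, rose by 0.20 ± 0.05 (edgeR adjusted p = 0.0355), and Dnmt3a, the gene of a de novo enzyme, changed by -0.33 ± 0.08 (0.0182). No treated library of either gene reached the MR range, and both calls were lost in 4 or 5 of the 6 cases with a library left out (up to 0.22 for Dnmt1).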
